A study of Saccharomyces cerevisiae with 26 samples.

Results

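The regulators of the galactose switch are the sensor gene GAL3, the activator gene GAL4 and the inhibitor gene GAL80, considered here with GCY1, a target gene of the activator. These 4 genes were chosen by name, and they are 4 of the 5606 genes that the arrays paired with a spot. They were followed in Saccharomyces cerevisiae grown on galactose in a chemostat, a culture held at steady state by a constant inflow of medium, after a pulse of glucose. Each array compared total RNA of the culture at t=0, labelled with Cy3, with that of 1 later time, labelled with Cy5, and the values are log2 ratios of the later time to t=0, so that a value of -1 is a fall to 50% of the starting level. There were 14 arrays after a pulse of 2 g/l glucose and 12 after 0.2 g/l, with 1 array per time and no replicate culture named in the titles. All samples share the galactose medium, and the strain is not named in the labels. Arrays were grouped into an early window (3 to 10 min after 2 g/l, 4 arrays, and 2 to 10 min after 0.2 g/l, 5 arrays), a middle window (15 to 45 min, 4 arrays each), a late window (90 to 150 min, 3 arrays each) and, after 2 g/l, a last window (180 to 240 min, 3 arrays).

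Gal4 is a DNA-binding activator that sits at the promoters of the galactose genes. Without galactose it is masked by Gal80, and with galactose Gal3 binds galactose and ATP and relieves Gal4 of Gal80. GAL3 and GAL80 are themselves targets of Gal4, so that the switch sets the level of its own sensor and of its own inhibitor. Glucose represses the system through the repressor Mig1, which acts on GAL genes and on the GAL4 promoter. GCY1 encodes an aldo-keto reductase that can act as a glycerol dehydrogenase, and it belongs to the Gal4 targets outside galactose breakdown.

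All spots of the array were measured in the same way, and 7627 to 9765 spots had a value per array. GAL3, GAL80 and GCY1 had 1 spot each and GAL4 had 2, which were averaged. The members had a value on all 26 arrays. Across all genes, 3 arrays of 0.2 g/l resembled their window least, with a correlation of 0.096 for 45 min, 0.35 for 30 min and 0.419 for 90 min. The 10 min array of 2 g/l lacked a value for 6.85% of the genes. The labels' carbon sources were visible in marker genes, since HXT1, for a glucose transporter used at high glucose, was at 3.68 ± 0.74 (SD, n = 4) in the middle window after 2 g/l, where GAL1, for galactokinase, was at -3.00 ± 0.53 (SD, n = 4). In bulk RNA, fewer cells that express a gene and less RNA per cell cannot be told apart. Every array had t=0 in Cy3, so a constant effect of the dyes on a spot cannot be told apart from a change against t=0.

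All 4 members were called lower than t=0 in the early and middle windows after 2 g/l glucose, and 2 in each after 0.2 g/l. The members not called after 0.2 g/l also had means below 0 in these windows. In the early window after 2 g/l, limma's moderated test called 4 of 4 members lower, where 20.8% of the 5372 genes tested were called lower. The members' median there was -1.29, against -0.04 for all genes tested. In the middle window 4 of 4 were again lower (22.1% of all genes), with a median of -1.83 against -0.03. In the late window 0 of 4 were called by limma (14.5% of all genes called), with 1 at an unadjusted p under 0.05. In the last window 0 were called (8.38% of all genes), with 0 at an unadjusted p under 0.05. After 0.2 g/l 2 of 4 were lower in the early window (11.7% of all genes), with 4 at an unadjusted p under 0.05, and 2 in the middle window (24.4%), with medians of -0.66 and -0.72 against 0.02 and -0.13. In the late window after 0.2 g/l limma called 0 (7.54% of all genes), with 0 at an unadjusted p under 0.05. Over all windows of a pulse together, the moderated F test called 4 members after 2 g/l (58.5% of all genes) and 3 after 0.2 g/l (52.3%), the exception being GAL4 (adjusted p = 0.0843). The p values measure the spread between times of a pulse and not between replicate cultures, and real change within a window adds to that spread.

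**Figure D1:**
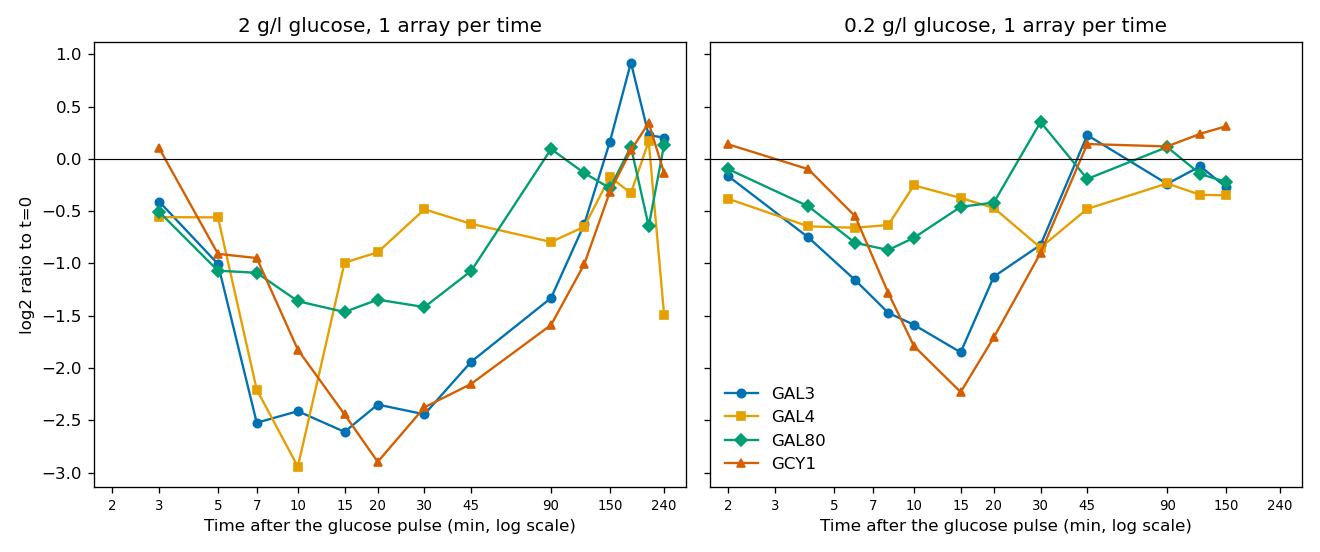
The log2 ratio to t=0 of GAL3, GAL4, GAL80 and GCY1 (vertical axis) against the time after the pulse in min (horizontal log axis), for 2 g/l (left) and 0.2 g/l (right), with each point 1 array. GAL3 and GCY1 reach -2.61 and -2.90 after 2 g/l, GAL80 levels off between -1.46 and -1.07 from 5 to 45 min, and GAL4 has its deepest values, -2.21 and -2.94, on the arrays of 7 and 10 min.

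GAL3, the gene of the galactose sensor, showed a steep and long fall. In the early window after 2 g/l it was at -0.41 at 3 min, -1.01 at 5 min, -2.52 at 7 min and -2.41 at 10 min. In the middle window it was at -2.61 at 15 min, -2.35 at 20 min, -2.44 at 30 min and -1.94 at 45 min. GAL3 was thus low on every array of the first 45 min and spread little from 7 min on.

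The early mean was -1.59 ± 1.05 (SD, n = 4, limma adjusted p = 0.000787) and the middle mean -2.34 ± 0.29 (SD, n = 4, limma adjusted p = 8.86e-06), which is 5.05-fold lower than at t=0. On each of the 4 middle arrays GAL3 ranked below the 1st percentile of all genes tested, between 0.541 and 0.95. The return is seen in the late window, with -1.33 at 90 min, -0.63 at 120 min and 0.17 at 150 min. At 180 min GAL3 was above its starting level, at 0.92, and there it ranked at the 98.8th percentile of all genes, while it was at 0.23 at 210 min and 0.20 at 240 min. The last window mean of 0.45 ± 0.41 (SD, n = 3) did not pass limma's test (adjusted p = 0.507). From the middle to the late window GAL3 rose by 1.74 (95% interval 0.74 to 2.74, limma adjusted p = 0.0418), a call that ended without any 1 of the arrays of 15, 20, 30, 120 or 150 min (adjusted p up to 0.308, without 150 min).

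The smaller pulse took GAL3 to -0.17 at 2 min, -0.75 at 4 min, -1.16 at 6 min, -1.47 at 8 min and -1.59 at 10 min. It was at -1.85 at 15 min, -1.13 at 20 min, -0.82 at 30 min and 0.23 at 45 min. The values ran down to 15 min and were back above t=0 at 45 min, within the middle window. That 45 min array resembled its window least, and GAL3 was below t=0 on the arrays of 90 to 150 min.

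The early mean after 0.2 g/l was -1.03 ± 0.58 (SD, n = 5, limma adjusted p = 0.00932) and the middle mean -0.89 ± 0.86 (SD, n = 4, limma adjusted p = 0.0299). Dropping the 10 min array ended the early call (adjusted p = 0.0557). Dropping that of 15, 20 or 30 min ended the middle one (adjusted p = 0.212, 0.107 and 0.0595). In the late window GAL3 was at -0.19 ± 0.11 (SD, n = 3, limma adjusted p = 0.818). GAL3 and GAL1 are paralogs, and the probe sequences are not used here, so that signal from GAL1 on the GAL3 spot was not tested. At 7 min after 2 g/l GAL1 was at -0.27 where GAL3 was at -2.52, while at 15 min they were at -2.26 and -2.61.

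GAL80, the gene of the inhibitor, fell early but less deeply. Its values after 2 g/l were -0.51 at 3 min, -1.07 at 5 min, -1.09 at 7 min and -1.36 at 10 min. It was at -1.46 at 15 min, -1.35 at 20 min, -1.42 at 30 min and -1.07 at 45 min. These 7 arrays from 5 to 45 min lie within a narrow band, between -1.46 and -1.07.

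The early mean was -1.01 ± 0.36 (SD, n = 4, limma adjusted p = 0.00011), and the middle mean -1.32 ± 0.18 (SD, n = 4, limma adjusted p = 1.93e-06), which is 2.5-fold lower than at t=0. By 90 min GAL80 was at 0.10, when GAL3 was still at -1.33 and GCY1 at -1.59. It stayed close to t=0 at 120 min (-0.13), 150 min (-0.28), 180 min (0.12) and 240 min (0.14), with -0.64 at 210 min. From the middle to the late window GAL80 rose by 1.22 (95% interval 0.73 to 1.71, limma adjusted p = 0.00542), so that 2 of 4 members rose there, where 3.46% of all genes did. GCY1 had a difference of 1.498 between these windows (limma adjusted p = 0.087) and GAL4 one of 0.21 (adjusted p = 0.87).

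The smaller pulse took GAL80 to -0.10 at 2 min, -0.45 at 4 min, -0.80 at 6 min, -0.87 at 8 min and -0.75 at 10 min. It was at -0.46 at 15 min, -0.42 at 20 min, 0.35 at 30 min and -0.19 at 45 min. Its lowest value thus came at 8 min, while GAL3 and GCY1 had theirs at 15 min.

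The early mean was -0.60 ± 0.32 (SD, n = 5, limma adjusted p = 0.00299). The middle mean of -0.18 ± 0.37 (SD, n = 4, limma adjusted p = 0.366) did not pass the test. At 30 min the array labelled 0.2 g/l, one of those least like the others of its window, had GAL80 at the 84.6th percentile of all genes while GAL3 was at -0.82 and GCY1 at -0.90.

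GAL4, the gene of the activator, had small negative values on most arrays and deep ones on a few. The larger pulse took it to -0.56 at 3 min, -0.56 at 5 min, -2.21 at 7 min and -2.94 at 10 min. It was at -0.99 at 15 min, -0.89 at 20 min, -0.48 at 30 min and -0.62 at 45 min. The 2 deep values stand on successive arrays, and the value at 10 min comes from 1 spot because the other had none there.

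The early mean was -1.57 ± 1.20 (SD, n = 4, limma adjusted p = 0.00036) and the middle mean -0.75 ± 0.24 (SD, n = 4, limma adjusted p = 0.0323). Dropping the 15, 20 or 45 min array ended the middle call (adjusted p = 0.121, 0.103 and 0.0587), as did using spot 1 alone (-0.57, adjusted p = 0.156) or the last window in place of t=0 (-0.20, adjusted p = 0.79). The early call held with each of the arrays left out, but it ended when the early arrays alone were fitted (adjusted p = 0.0618) and when the window was set against the last window in place of t=0 (-1.02, adjusted p = 0.111).

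Later GAL4 was at -0.79, -0.65 and -0.17 at 90, 120 and 150 min, and at -0.33, 0.17 and -1.49 at 180, 210 and 240 min. GAL4 was below 0 on 13 of 14 arrays after 2 g/l. After 0.2 g/l all 12 arrays had GAL4 below 0, between -0.85 at 30 min and -0.23 at 90 min. A constant effect of the dyes on its spots was not tested. Neither the early mean (-0.51 ± 0.19, SD, n = 5, limma adjusted p = 0.12) nor the middle mean (-0.54 ± 0.21, SD, n = 4, limma adjusted p = 0.12) passed the test. The early call of GAL4 after 0.2 g/l was gained with quantile normalization (adjusted p = 0.00854), with only the compared window fitted (0.00738) and from spot 2 alone (0.0394), and the middle call from spot 2 alone (0.0263). The F test over all windows after 0.2 g/l was passed with quantile normalization (adjusted p = 0.00824) and from spot 2 alone (0.00977).

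The spots of GAL4 did not track each other closely. Over the 25 arrays with both, their median absolute difference was 0.297, the correlation across arrays was 0.574, and the largest difference, 1.59, was on the array of 240 min after 2 g/l. Spot 2 was the lower one on 19 arrays. The reference annotation places an antisense RNA over GAL4, and since the strand of the probes is not given in the sources used here, signal from both cannot be told apart on these spots.

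GCY1, the aldo-keto reductase gene among the Gal4 targets, was above t=0 on the first array and later fell as deep as GAL3. Its course after 2 g/l was 0.10 at 3 min, -0.91 at 5 min, -0.95 at 7 min and -1.83 at 10 min. It was at -2.44 at 15 min, -2.90 at 20 min, -2.38 at 30 min and -2.15 at 45 min. On the first array, where GCY1 was above t=0, the regulators had values from -0.56 to -0.41. At 5 min GCY1 was already lower than GAL4 (-0.56) and near GAL3 (-1.01). All middle values of GCY1 lie under its early ones.

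The early mean was -0.89 ± 0.79 (SD, n = 4, limma adjusted p = 0.0328), a call lost when the 5, 7 or 10 min array was dropped (adjusted p = 0.0748, 0.0943 and 0.256). The middle mean was -2.47 ± 0.31 (SD, n = 4, limma adjusted p = 6.21e-06), which is 5.53-fold lower than at t=0 and the deepest window mean of any member. The difference of -1.57 between the middle and the early window did not pass the test (95% interval -2.52 to -0.63, limma adjusted p = 0.0688), and 0 of 4 members were called between these windows (2.1% of all genes), with 2 at an unadjusted p under 0.05. GCY1 then had values of -1.59, -1.01 and -0.31 on the arrays of 90, 120 and 150 min, a late mean of -0.97 ± 0.64 (SD, n = 3, limma adjusted p = 0.0865). In the last window it lay between -0.13 and 0.35.

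The smaller pulse took GCY1 to 0.14 at 2 min, -0.10 at 4 min, -0.55 at 6 min, -1.28 at 8 min and -1.79 at 10 min. It was at -2.23 at 15 min, -1.71 at 20 min, -0.90 at 30 min and 0.14 at 45 min. The 15 min value was thus near the depth reached after 2 g/l, and by 45 min, on the array least like its window, the gene was back at t=0.

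The early mean of -0.72 ± 0.81 (SD, n = 5, limma adjusted p = 0.0645) did not pass the test, though it did once the 2 min array was dropped (-0.93, adjusted p = 0.0289). The middle mean of -1.17 ± 1.03 (SD, n = 4, limma adjusted p = 0.0073) passed it, but no longer when the 15 or 20 min array was dropped (adjusted p = 0.0781 and 0.0523). In the late window GCY1 was at 0.22 ± 0.10 (SD, n = 3, limma adjusted p = 0.788).

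**Figure D2:**
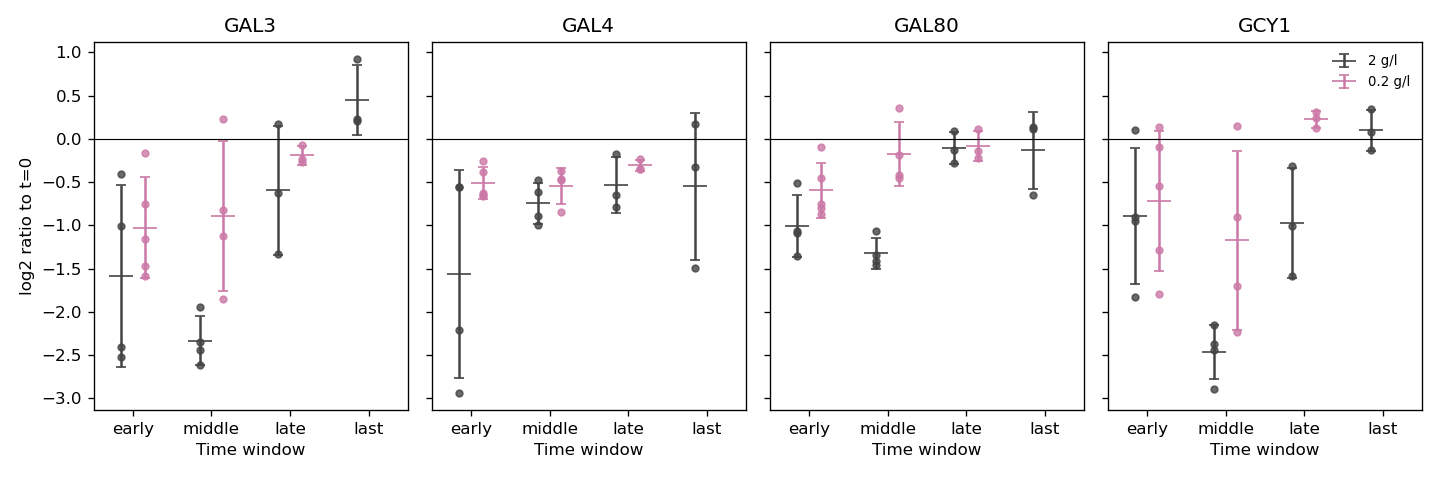
The log2 ratio to t=0 (vertical axis) of each member by time window (horizontal axis), with points for arrays and bars for the mean ± SD, in grey for 2 g/l and pink for 0.2 g/l. In the middle window the points of GAL80 (-1.46 to -1.07 after 2 g/l, -0.46 to 0.35 after 0.2 g/l) and of GAL3 do not overlap between the pulses.

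The order of the windows differed between members. For GAL3, GAL80 and GCY1 the middle window after 2 g/l was the lowest, and for GAL4 the early window after 2 g/l. In every member, neighbours in this order had arrays that overlapped, except that GAL3 in the last window after 2 g/l (0.20 to 0.92) lay above its late window after 0.2 g/l (-0.27 to -0.07).

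Between 15 and 45 min GAL3 and GAL80 were lower after the larger pulse. After 0.2 g/l both genes came back towards t=0 within these times. GAL3 differed by -0.76 at 15 min and by -2.17 at 45 min, when it was at 0.23 after 0.2 g/l. GAL80 differed by -1.01 at 15 min and by -1.77 at 30 min, when it was at 0.35 after 0.2 g/l. In this middle window the difference of 2 g/l minus 0.2 g/l was -1.44 for GAL3 (95% interval -2.37 to -0.52, limma adjusted p = 0.0332) and -1.15 for GAL80 (-1.60 to -0.69, adjusted p = 0.0025), with arrays that do not overlap in either gene. It was -1.29 for GCY1 (-2.24 to -0.35, adjusted p = 0.0583) and -0.20 for GAL4 (-1.01 to 0.60, adjusted p = 0.739), with overlapping arrays. So 2 of 4 members were called lower after the larger pulse, where 6.25% of all genes were. The call of GAL3 ended without any 1 of 5 arrays (15, 20 or 30 min after 2 g/l, 30 or 45 min after 0.2 g/l, adjusted p between 0.0636 and 0.098). Without the 0.2 g/l arrays of 30, 45 and 90 min, GAL3 differed by -0.85 (adjusted p = 0.31). The call of GAL80 held with any single array left out, but it ended without the arrays of over 5% missing genes (adjusted p = 0.093) and with only the compared windows fitted (0.076).

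In the early window 0 of 4 members were called between the pulses (0.484% of all genes), with 1 at an unadjusted p under 0.05. The differences were -0.56 for GAL3 (95% interval -1.44 to 0.32), -1.05 for GAL4 (-1.82 to -0.29), -0.41 for GAL80 (-0.84 to 0.02) and -0.18 for GCY1 (-1.08 to 0.72). In the late window 0 were called as well (3.03% of all genes), with 1 at an unadjusted p under 0.05. There GCY1 differed by -1.19 (95% interval -2.29 to -0.10, limma adjusted p = 0.255), while GAL80 differed by -0.02 (-0.55 to 0.50). Each dose has a single series of times, and the titles do not name the cultures. Effects of dose and of culture therefore cannot be told apart in any of these differences.

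Comparing the pulses at the same time showed when they parted. There were 8 times measured after both, from 10 to 150 min. For GCY1 the difference of 2 g/l minus 0.2 g/l was -0.04 at 10 min and -0.21 at 15 min, then -1.19 at 20 min, -1.48 at 30 min, -2.30 at 45 min, -1.71 at 90 min, -1.25 at 120 min and -0.63 at 150 min. GCY1 thus differed little at the matched times of 10 and 15 min and more from 20 min on, and it was lower after the larger pulse at 8 of 8 times.

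For GAL80 the difference was already -0.61 at 10 min and -1.01 at 15 min, widest at 30 min with -1.77, and -0.02, 0.01 and -0.06 at 90, 120 and 150 min. For GAL3 it was -0.83 at 10 min, widest at 45 min with -2.17, still -1.09 at 90 min and 0.44 at 150 min. For GAL4 it was -2.69 at 10 min and between -0.62 and 0.37 at the other times. At 90 min the difference of GAL80 was thus near 0, while GAL3 and GCY1 were at -1.09 and -1.71, in a single pair of arrays. The 0.2 g/l arrays of 30, 45 and 90 min, used in these differences, were those least like their windows. In the late window as a whole limma called no member between the pulses.

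Over the matched times together, limma called GAL3 (mean difference -0.98 ± 0.77, SD, n = 8, adjusted p = 0.0428, lower at 7 of 8 times) and GCY1 (-1.10 ± 0.77, SD, n = 8, adjusted p = 0.0334), so 2 of 4 members, where 4.82% of all genes were called lower. GAL80 (-0.66 ± 0.62, SD, n = 8, limma adjusted p = 0.077, lower at 7 of 8) and GAL4 (-0.52 ± 0.94, SD, n = 8, limma adjusted p = 0.262, lower at 6 of 8) did not pass the test. Leaving out a single time left 0 or 1 of these calls. Between the late and last windows after 2 g/l limma called 0 members (1.25% of all genes), as it did between early and middle (6.22%) and between middle and late (1.9%) after 0.2 g/l, with 0, 0 and 1 members at an unadjusted p under 0.05. The difference between the pulses in the step from middle to late was called in 0 members (0.521% of all genes), with 1 at an unadjusted p under 0.05.

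The timing of the fall and return, read against each gene's own depth, set GAL80 apart in value from GAL3 and GCY1. Values were joined by straight lines from 0 at t=0, and the times were read at which a gene passed 50% of its deepest log2 ratio. After 2 g/l this was 3.8 min for GAL80, 5.4 min for GAL3, 6.11 min for GAL4 and 8.71 min for GCY1. On the way back it was 13.8 min for GAL4, 58.1 min for GAL80, 91.0 min for GAL3 and 97.2 min for GCY1. After 0.2 g/l GAL80 passed this point at 3.9 min, GAL3 at 4.86 min and GCY1 at 7.55 min, and they came back at 17.7, 26.6 and 27.3 min. In both pulses the order of these 3 genes was the same, but each time rests on 1 array per point and has no error. A gene that falls less passes its 50% point at a shallower value, so these times do not compare levels. At 3 and 5 min after 2 g/l GAL80 was at -0.51 and -1.07, close to GAL3 at -0.41 and -1.01. After 0.2 g/l GAL3 was lower than GAL80 on each array from 2 to 30 min. GAL4 after 0.2 g/l, with its lowest value of -0.85 at 30 min, passed the point at 2.32 min and came back at 54.9 min.

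**Figure D3:**
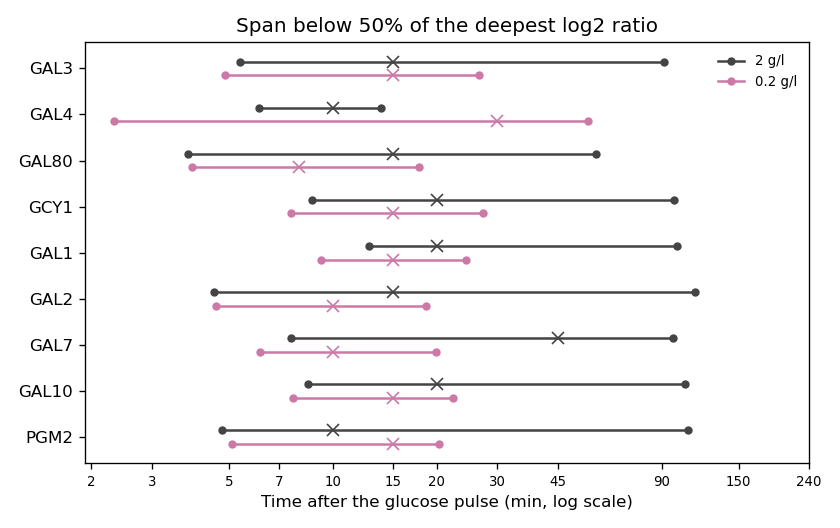
Spans, in min on a horizontal log axis, during which each gene (vertical axis) lay beyond 50% of its deepest log2 ratio, after 2 g/l (grey) and 0.2 g/l (pink), with a cross at the time of the lowest array. GAL80 returned first after 2 g/l apart from GAL4, at 58.1 min, while GAL3, GCY1 and the 5 structural genes returned between 91.0 and 112 min.

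The structural genes of galactose uptake and breakdown are GAL2 (permease), GAL1, GAL7 and GAL10 (enzymes of the Leloir pathway) and PGM2 (phosphoglucomutase). In the middle window after 2 g/l 5 of 5 were lower (22.1% of all genes), with a median of -3.42 against -0.03 for all genes tested. Each of their means there, from -4.03 to -3.00, lay under that of every member. This order did not hold elsewhere, since their means in the middle window after 0.2 g/l were from -0.90 to -0.67 against -1.17 for GCY1. There 0 of 5 were called by limma (24.4% of all genes lower and 15.1% higher), and 2 had an unadjusted p under 0.05. GAL10, for the epimerase, was at -3.54 ± 0.12 and GAL2 at -4.03 ± 0.13 (SD, n = 4). Their return points of 96.5 to 112 min after 2 g/l were near those of GAL3 and GCY1.

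On the same array the members changed by unequal amounts, but no pair passed the test. The exact sign-flip permutation test (two-sided) was run on the arrays of the first 45 min for 6 pairs in 2 pulses, 12 tests in all, with 0 of 12 called after Benjamini-Hochberg adjustment and 2 at an unadjusted p under 0.05. Those 2 were GAL3 minus GAL80, with -0.80 ± 0.57 after 2 g/l (SD, n = 8, exact p = 0.0312, adjusted p = 0.188, below 0 on 6 arrays) and -0.56 ± 0.56 after 0.2 g/l (SD, n = 9, exact p = 0.0234, adjusted p = 0.188, below 0 on 8 arrays). The smallest p these designs allow is 0.00781 and 0.00391. After 2 g/l the difference of GAL3 minus GAL80 was 0.10 at 3 min and 0.06 at 5 min, then -1.44 at 7 min, between -1.15 and -0.87 on the 5 arrays from 10 to 45 min, -1.43 at 90 min and -0.49 at 120 min. It was 0.45 at 150 min, 0.81 at 180 min, 0.87 at 210 min and 0.07 at 240 min. The sensor transcript was thus reduced more than the inhibitor transcript on each array from 7 to 120 min, and had the higher ratio of them on those from 150 to 210 min, with little between them at 240 min.

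**Figure D4:**
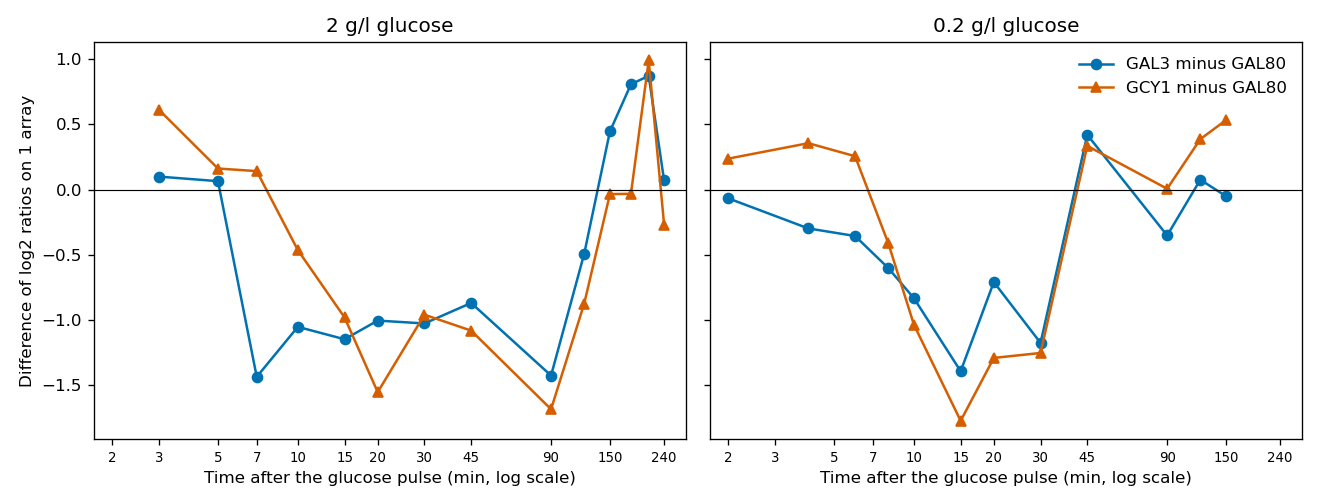
The difference of log2 ratios on the same array (vertical axis) for GAL3 minus GAL80 and GCY1 minus GAL80, against the time after the pulse in min (horizontal log axis), for 2 g/l (left) and 0.2 g/l (right), with each point 1 array. After 2 g/l GAL3 minus GAL80 lies between -1.44 and -0.49 from 7 to 120 min at 0.45 or above from 150 to 210 min and at 0.07 at 240 min.

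Among themselves the members were alike to different degrees. The 26 arrays may share the t=0 sample of each pulse. Over them Pearson's r was 0.872 for GAL3 with GCY1, 0.785 for GAL3 with GAL80, 0.645 for GAL80 with GCY1, and 0.293 to 0.504 for GAL4 with the others. Among 5197 genes with a value on at least 24 arrays, GCY1 stood at position 67 in likeness to GAL3, and GAL80 at position 265.

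The genes most like GAL3 were PGM2 (r = 0.964), CSR2 (0.952), RNY1 (0.95), YLR345W (0.943) and GLK1 (0.936), of which PGM2 makes glucose 6-phosphate in galactose breakdown and GLK1 encodes glucokinase. On the 2 g/l arrays of 7 and 90 min PGM2 was at -2.82 and -2.09, where GAL3 was at -2.52 and -1.33. The genes most like GCY1 were HSP78 (0.959), for a mitochondrial chaperone, TFS1 (0.958), OM45 (0.953), for a protein of the mitochondrial outer membrane, GLK1 (0.946) and ATG19 (0.942), for a receptor of selective autophagy. For both members these values moved little without the 2 arrays farthest from the median (0.924 to 0.957 for GAL3 and 0.923 to 0.959 for GCY1). The genes most like GAL80 were MSK1 (0.912), for a mitochondrial lysyl-tRNA synthetase, MDH1 (0.858), for mitochondrial malate dehydrogenase, SDH1 (0.846), for a subunit of succinate dehydrogenase, LEE1 (0.845) and MBA1 (0.842). Other galactose genes were absent from these lists apart from PGM2.

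GAL4 was most like TDA8 (0.908), MCM16 (0.884), YNL019C (0.884), IQG1 (0.883) and REV3 (0.873). Without the 2 farthest arrays, 7 and 10 min after 2 g/l, these values were between 0.362 and 0.76, so that the likeness of GAL4 to its list rested largely on those arrays. The lists depended on the pulse: over the 14 arrays of 2 g/l alone, 3 of the 5 genes stayed among the 5 most like GAL3, and over the 12 arrays of 0.2 g/l alone 0 did.

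Other reported Gal4 targets did not share 1 course. FUR4, for the uracil permease, was lower in the early (-0.80, limma adjusted p = 0.00036) and middle window after 2 g/l (-0.88). PCL10, for a cyclin of the Pho85 kinase, was at -0.94 (adjusted p = 0.00408) and -0.55 (adjusted p = 0.062) there. MTH1, for a corepressor of glucose transporter genes, was lower early (-1.45) and higher in the middle window after 0.2 g/l (1.76). LAP3, for a cysteine protease reported as a negative regulator of the GAL system, was lower in both middle windows (-1.66 and -1.60). Of these 4 genes 3 were lower early (20.8% of all genes) and 2 in the middle one after 2 g/l (22.1%), with medians of -0.87 and -0.72. The smaller pulse had 2 of them lower and 0 higher early (11.7% of all genes lower and 18.1% higher), then 2 higher and 2 lower in the middle window (15.1% higher and 24.4% lower).

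The Mig1 and Snf1 pathway, which carries glucose repression to the GAL genes, had few members called at the transcript level after 2 g/l. Of 16 genes 14 were tested, and 15 to 45 min after 2 g/l 2 were higher and 1 lower, with a median of 0.17, where 21.7% of all genes were higher and 22.1% lower. MIG1, for the repressor of GAL genes, was at 0.69 (limma adjusted p = 0.117), with each array there between 0.51 and 0.75. The test takes the spread of a gene over all arrays, and MIG1 was at -2.85 on the 0.2 g/l array of 45 min. On that array, the least like its window, NRG2 and CYC8 of this pathway were at -1.67 and -1.18. MIG3, for a related repressor, was higher 15 to 45 min after 2 g/l, at 1.11 (limma adjusted p = 0.00192). SIP1, for a subunit of the Snf1 kinase complex, was higher in that window (0.66) and SIP2, for an alternative subunit, lower (-1.27, adjusted p = 0.0472). In the early window after 2 g/l 1 gene of the pathway was higher (16.8% of all genes) and 3 were lower (20.8%).

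Mediator is a complex through which Gal4 contacts the transcription machinery. Of 8 genes of its kinase module and tail, 3 were lower early after 2 g/l (20.8% of all genes). At 15 to 45 min 1 was lower after 2 g/l (22.1%) and 5 after 0.2 g/l (24.4%). SRB8, of the kinase module, was lower in each of these windows, with -0.67, -0.79 and -0.87. Others had extreme values on single arrays of the middle window after 0.2 g/l. SSN2 was at -7.41 at 15 min, and PGD1 and MED2 were at -3.15 and -3.91 at 30 min, on an array little like its window. PGD1 was between -0.66 and -0.06 on the other arrays there. Of 10 genes for Gal4 turnover and for chromatin at GAL genes, 4 were lower early (20.8% of all genes) and 0 were called by limma in the middle window after 2 g/l (22.1% lower and 21.7% higher), and 0 had an unadjusted p under 0.05. The 4 were ADA2, of the histone acetyltransferase complex SAGA, SNF5 and SWI1, of the SWI/SNF remodeller, and INO80. ADA2 had values on 3 arrays that lay far apart, -4.41, -0.60 and -1.83, while SWI1 was at -0.70 (limma adjusted p = 0.000871).

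Genes near GCY1 in function fell with it in part. Of 9 aldo-keto reductase and glycerol genes 8 were tested, and 6 were lower in the middle window after 2 g/l (22.1% of all genes) and 5 after 0.2 g/l (24.4%), with medians of -0.70 and -0.68 against -0.03 and -0.13 for all genes. GUT1, for glycerol kinase, was at -1.81, GUT2, for the mitochondrial glycerol 3-phosphate dehydrogenase, at -1.51, and GRE3, for an aldose reductase, at -1.29 in the window after 2 g/l. YPR1, the paralog of GCY1, was at -0.49 there (limma adjusted p = 0.0232), a fall of smaller size than the -2.47 of GCY1.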

How the data were processed

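Total RNA of 26 samples was measured on 2-colour arrays. The value deposited for each spot is a log2 ratio of its channels that the authors had normalized. The sources used here name neither the method nor the image software. The base of the logarithm was inferred from the values, and Cy5 was taken as the numerator, which the table leaves unstated. Of 10752 spots 6834 could be named through the platform annotation and the R64 reference table, used for names and gene order only. Spots of a gene were averaged.

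The 5372 genes with at least 2 values in each of 7 windows were fitted with limma 3.58.1 in R 4.3.3 (lmFit on window means, eBayes, two-sided, Benjamini-Hochberg over all genes, threshold 0.05). The fit was tested on simulated data. Matched times were tested on differences between the pulses. Pairs of members were tested by exact sign flips (Python 3.11.15, numpy 2.4.6, pandas 2.3.3), and figures used matplotlib 3.10.9. Precision is limited by how few arrays a window holds, and spot brightness was not analysed here.

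The members and lists were chosen with earlier results of these data known. Named genes are the members, the 5 genes most correlated with each, and examples from 6 lists written from general knowledge. Alternatives covered spots, normalization, missing values, variance model, the arrays fitted, the reference and each array left out.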

Additional observations from a re-analysis of the deposited data

Results flagged for a closer look

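The values of 2 members against t=0 differed between the pulses in the middle window by a test of the difference itself. GAL3 was lower after 2 g/l by -1.44 and GAL80 by -1.15 on the log2 scale, with limma adjusted p = 0.0332 and 0.0025. Over the 8 matched times the difference was called for GAL3 (-0.98, limma adjusted p = 0.0428) and for GCY1 (-1.10, adjusted p = 0.0334). None of 16 sets of 4 or 5 arrays per member and window held an array far enough from the others to be flagged.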

How the results depend on the processing

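The values come from 1 series of times per pulse and 1 array per time, so that no error between cultures is known. Calls after 2 g/l depended least on the processing, and those after 0.2 g/l and between the pulses depended on it more. The causes of the changes below were not tested. Shares of all genes called were computed for the main fit alone, so a change in the members is not set against one in all genes. With quantile normalization the members called became 1 in the late window after 2 g/l, 1 in the last, 4 in the early window after 0.2 g/l, 1 in the middle one, 1 between middle and early after 2 g/l, and 1 at matched times, where centring the arrays also gave 1. Without arrays lacking over 5% of genes there was 1 call in the late window and 1 between middle and early after 2 g/l, 1 in the middle window after 0.2 g/l and 0 between the pulses in the middle window. Fitting only the windows compared, and so with fewer arrays, gave 2 calls in the early window after 2 g/l, 0 in the middle window after 0.2 g/l and 0 between the pulses in the middle window. Set against the last window of the pulse in place of t=0, there were 2 calls early after 2 g/l, while after 0.2 g/l there were 0 early and 0 in the middle window. Without the 0.2 g/l arrays of 30, 45 and 90 min, an alternative chosen after seeing the data, there was 1 call in the late window and 1 between middle and early after 2 g/l, 1 between the pulses in the middle window and 1 between late and middle after 0.2 g/l.

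Leaving out 1 array at a time gave 3 to 4 calls in the early and middle windows after 2 g/l, 1 to 3 and 0 to 2 in those after 0.2 g/l, 0 to 1 between the pulses early and 1 to 3 in the middle window. It gave 0 to 1 calls between middle and early and 1 to 2 between late and middle after 2 g/l, 0 to 1 between late and middle after 0.2 g/l, and 0 to 1 at matched times. Values that changed sign were all uncalled. In the late window after 2 g/l, GAL4 was at 0.011 and GAL80 at 0.025 against the last window. Leaving out 1 array in the last window gave -0.26 to 0.13 for GAL80 and -0.025 to 0.21 for GCY1. The early difference of GCY1 between the pulses was -0.51 to 0.13 with 1 array left out, and 0.13 without arrays lacking over 5% of genes. The late difference of GAL80 was 0.015 with centring, 0.028 with quantile normalization, 0.076 without the 3 arrays of 0.2 g/l, and -0.12 to 0.076 with 1 left out. GAL4 minus GAL80 after 2 g/l was -0.18 over all arrays of the pulse, -0.059 with GAL4 spot 2 alone and -0.12 to 0.24 with 1 array left out. After 0.2 g/l it was 0.010 with spot 1 alone and -0.19 to 0.020 with 1 left out, and GAL3 minus GCY1 was -0.13 to 0.027.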

Other observations

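The genes next to the members on their chromosomes, in the order of the reference annotation, moved with them in part, since in the middle window after 2 g/l 4 of the 7 tested were lower, where 22.1% of all genes were. SUR7 and AIM32, which flank GAL80, were at 0.07 (limma adjusted p = 0.72) and -0.47 (adjusted p = 0.00234) in the middle window after 2 g/l, where GAL80 was at -1.32. TRP1, beside GAL3, was at -0.19 (adjusted p = 0.533), and the gene on its other side was not tested. RIO1 and PFY1, which flank GCY1, were at -0.07 (adjusted p = 0.839) and -0.43 (adjusted p = 0.0152), where GCY1 was at -2.47. Both neighbours of GAL4 were lower early after 2 g/l (20.8% of all genes), GYP5 by limma at -0.93 (adjusted p = 0.00209) and YPL247C at -1.34 (adjusted p = 0.000131). They were lower again in the middle window, at -0.87 and -1.01.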
